A study of Saccharomyces cerevisiae with 21 samples.

Results

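The regions described here are the 300 windows of 5 kb with the fewest Spo11 reads in *sae2*Δ cells, out of 2276 windows on the 16 nuclear chromosomes, and they are called break-cold windows. Each chromosome was cut into consecutive 5 kb windows from its first base. Windows in the first or last 20 kb of a chromosome were dropped, as was the stretch of chromosome XII with the rDNA repeat. The windows were then ranked on the equal-weight average of the *sae2*Δ libraries, in HpM, the hits (read ends) on both strands scaled to a library of 1000000 reads on the nuclear chromosomes. Because *sae2*Δ chose the windows, their *sae2*Δ levels and every ratio to *sae2*Δ in the same libraries are a description with no test.

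In meiosis the topoisomerase-like protein Spo11 cuts DNA on both strands and stays covalently bound to the 5′ ends. In budding yeast most of these double-strand breaks (DSBs) fall into nucleosome-depleted promoters, while the inside of genes, the pericentromeres and the flanks of the rDNA receive few. Sae2 is needed to clip Spo11 off the ends, so that in *sae2*Δ cells the Spo11-linked ends accumulate, and CC-seq enriches and sequences these ends. Tel1 is the checkpoint kinase that restrains further cutting near a break, and Ndt80 is the transcription factor that drives exit from prophase, so *ndt80*Δ cells arrest there.

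All strains were SK1 diploids of *S. cerevisiae* sampled 6 h after transfer to sporulation medium, and all carried *sae2*Δ, the marker alleles *arg4-nsp*, *lys2* and *ura3*, and the insertions *ho*::*LYS2*, *his4X*::*LEU2* and *leu2*::*hisG*. The *sae2*Δ strain (MJ315, 5 replicates), *sae2*Δ *ndt80*Δ (MJ962, 4), *sae2*Δ *tel1*Δ (VG402, 4) and *sae2*Δ *ndt80*Δ *tel1*Δ (MJ965, 5) also carried *nuc1*::*LEU2*. The control was 1 library of *sae2*Δ *ndt80*Δ *spo11-Y135F* (GB21), in which Spo11 cannot cut, and its label names no *nuc1* allele. Each genotype is 1 strain, and the study describes its replicates as independent. The 21 libraries held 1562673 to 8705712 reads, and the median break-cold window held from 55 reads (replicate 5 of MJ965) to 1460.5 reads (replicate 1 of MJ962). As *sae2*Δ is common to all, it is left out of the names of the other genotypes below.

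Reads inside the *TEL1* ORF separated the genotypes as labelled. They lay between 48.6 and 397 HpM in the *TEL1*+ libraries with active Spo11 and between 0.549 and 13.6 HpM in those with *tel1*Δ. For *NDT80* the ranges were 21.8 to 62.1 HpM in *NDT80*+ libraries and 7.14 to 29.9 HpM in *ndt80*Δ libraries with active Spo11, so they overlapped, and the control, itself *ndt80*Δ, held 34.9 HpM. Reads in the *SAE2* ORF did not vanish (103 to 487 HpM with active Spo11, 33.9 HpM in the control). The libraries also differed strongly in background. Reads in 11 ORFs longer than 5.5 kb that do not touch a break-cold window, expressed per 5 kb, ranged from 9.56 to 251 HpM among the 18 replicates, and were lowest in *ndt80*Δ *tel1*Δ replicate 5 and *ndt80*Δ replicate 4. These are the libraries whose file names carry time course 17. The part of the background in the differences between genotypes is given by values below where one was computed, and was otherwise not tested.

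In the *sae2*Δ average the break-cold windows held 0 to 104.6 HpM (median 86.4), against a median of 247 HpM and a maximum of 6400.1 HpM over all windows. The last 5 windows inside lay between 103.9 and 104.6 HpM and the first 5 outside between 104.7 and 105.0 HpM, so the boundary cuts through a continuous range. In the *spo11-Y135F* control the same windows had a median of 359.8 HpM, against 393 HpM over all windows. A count of about 1104.5 reads lay behind such a control value, which gives an exact Poisson 95% interval of -5.86% to 6.03%, for counting error only. Relative to the control, the *sae2*Δ level of the break-cold windows was 0.246 in the median, against 0.636 over all windows.

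The control did separate a small subset. In 23 of the break-cold windows the control itself was below 0.5 times its median, which held for 30 of all 2276 windows. The lowest control levels lay at XII:470001-475000 (0 reads, which allows up to 0.977 HpM), at VIII:85001-90000 (22.1 HpM) and at IV:1155001-1160000 (27.4 HpM). The window on XII holds copies of *ASP3*, a cell-wall asparaginase gene repeated in tandem beside the rDNA, and the window on IV holds *HXT7* and *HXT6*, near-identical genes for glucose transporters. Others of the 23 held *ENA5* and *ENA2* (sodium pump genes), the flocculin genes *FLO9* and *FLO1*, or one of 38 ORFs of between 5.2 and 5.4 kb that recur across the genome with only 5 distinct lengths. Such ORFs overlapped 33 of 293 annotated break-cold windows (11.3%) and 71 of all 2229 (3.19%). In the 23 windows the few reads in *sae2*Δ thus went with few reads in the control, and their *sae2*Δ to control ratio was 0.320 in the median. Levels at genes with near-identical copies are uncertain, since how reads that match several copies were placed is not given in the sources used here. The other 277 windows had a control level of at least 0.5 times the median. They are used below where single windows are compared with a control scaled to each library. Other ratios to the control use all break-cold windows with control reads.

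The highest control levels among the break-cold windows were 473 HpM at XV:335001-340000 (*DNL4*, *TSR3*, *SGT2*), 466 HpM at VIII:80001-85000 (*YHL012W*, *PRS3*, *ETP1*, *YAP3*) and 464 HpM at V:125001-130000 (*NPP2*, *EDC3*, *YEL014C*, *VAC8*). *DNL4* encodes the DNA ligase of end joining. At XV:335001-340000 the 5 *sae2*Δ replicates, which chose the window as low, held 107, 62.7, 121, 96.0 and 102 HpM. These values are not scaled to the library background. In 49 ORFs longer than 5.5 kb, the *sae2*Δ replicates stood at only 0.143 to 0.305 times the control level, so the gap is not particular to this window.

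The break-cold windows followed the gene map (R64 positions). Of the 99 windows with no ORF start, 83 were break-cold (83.8%). The share was 33.7% with 1 start, 9.52% with 2, 4.22% with 3 and 0.962% with 4 (3 of 312 windows). It then rose to 4 of 95 windows with 5 starts and to 2 of 14 with 6 or more, where the numbers were small. ORFs covered a median of 87.3% of a break-cold window and 77.2% of all windows. All 26 windows that a single ORF covers from end to end were break-cold.

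**Figure D1:**
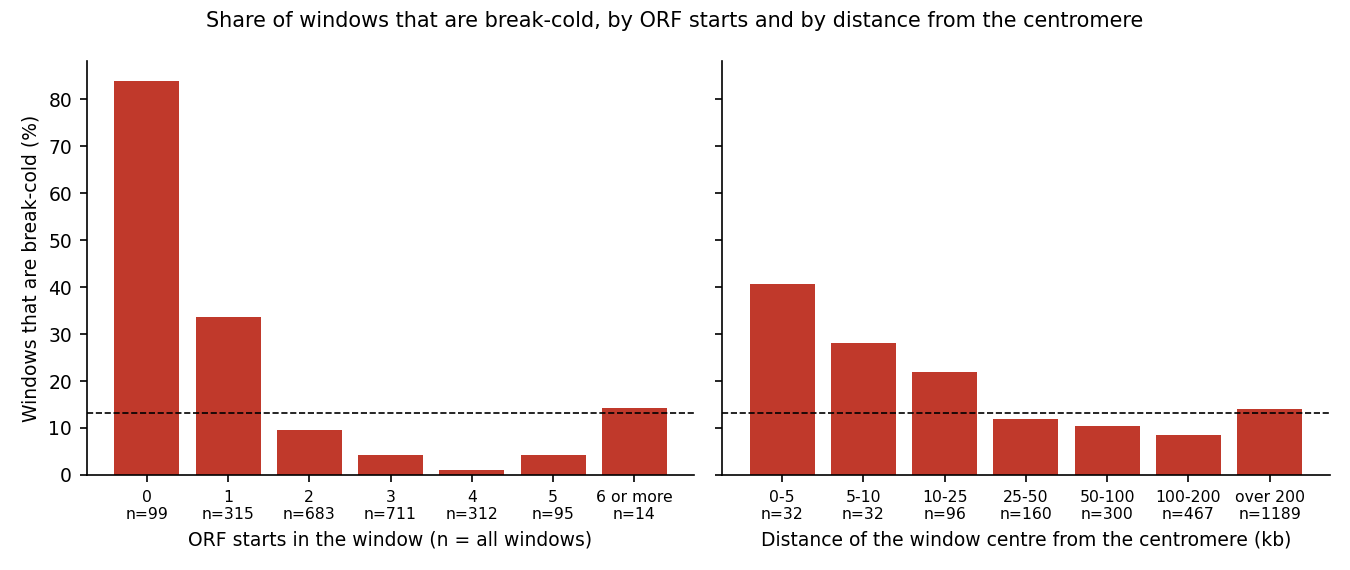
The bars give the percent of windows that are break-cold by the number of ORF starts in the window (left) and by the distance of the window centre from the centromere in kb (right), with n the number of all windows in each class and the dashed line the share over all windows. The share fell from 83.8% with no ORF start to 0.962% with 4, and from 40.6% within 5 kb of a centromere to 8.57% at 100 to 200 kb.

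Of 52 ORFs longer than 5.5 kb, 41 overlapped a break-cold window and 35 lay at least 50% inside such windows. The 5 longest of these were *REA1* (a dynein-related ATPase of ribosome assembly, 14733 bp on XII), *TRA1* (a subunit of the SAGA and NuA4 complexes, 11235 bp on VIII), *TOM1* (a ubiquitin ligase, 9807 bp on IV), *VPS13* (a lipid transfer protein, 9435 bp on XII) and *IRA1* (an inhibitor of Ras, 9279 bp on II). Break-cold windows held 93.2% of *REA1*, 80.1% of *TRA1*, 97.8% of *TOM1*, 91.6% of *VPS13* and 53.9% of *IRA1*. *DYN1*, which is longer than *TRA1*, lay only 40.7% inside.

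The window VIII:305001-310000 lies wholly within *TRA1*. It held 92.9, 38.4, 96.4, 70.6 and 67.5 HpM in the *sae2*Δ replicates and 233, 46.7, 233 and 23.2 HpM in *ndt80*Δ. It held 94.8, 121, 159.8 and 160.3 HpM in *tel1*Δ, and 27.2, 31.8, 114, 234 and 0.824 HpM in *ndt80*Δ *tel1*Δ. The 4 genotypes overlapped, and the spread within the 2 *ndt80*Δ genotypes (SD 115 and 95.2 HpM) was wider than any difference between means. In the windows that *REA1*, *TOM1*, *VPS13* and *IRA1* fill, *ndt80*Δ *tel1*Δ replicate 5 was likewise the lowest replicate, at 0.549 to 3.57 HpM.

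Among windows with a control of at least 0.5 times the median, the 5 lowest in *sae2*Δ were VIII:535001-540000, X:40001-45000, II:260001-265000, VII:540001-545000 and VII:535001-540000, with averages of 44.2 to 67.8 HpM. The first holds *YHR212W-A* and *YHR213W*, and ORFs cover 16.0% of it. The windows on II and VII hold recurrent ORFs of 5.2 to 5.4 kb (*YBR012W-B*, *YGR027W-B*), and the last but one also holds *MSP1* and *ERV1*, genes for mitochondrial proteins. Their controls were 215 to 302 HpM, below the 393 HpM of all windows. Only X:40001-45000 combined a very low *sae2*Δ level with a full control level (428 HpM, exact Poisson 95% interval 405 to 452).

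The window X:40001-45000 holds *NUC1*, the gene of a mitochondrial nuclease, and most of *LAA1*, a gene for a partner of a clathrin adaptor. *NUC1* is disrupted in the 4 strains with active Spo11, and reads within its ORF were 2.77 to 17.8 HpM there against 87.6 HpM in the control, so part of the gap to the control is at a changed locus. Across the window, the replicates of *sae2*Δ held 80.2, 41.0, 80.3, 65.9 and 60.7 HpM, those of *ndt80*Δ 191, 56.4, 187 and 25.4 HpM, and those of *tel1*Δ 78.9, 108, 142 and 140.1 HpM. Those of *ndt80*Δ *tel1*Δ held 31.9, 35.4, 104, 187 and 9.89 HpM. None of the 3 tested comparisons called this window (adjusted p from 0.474 to 1.00, edgeR).

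Cold windows were more frequent near centromeres, which assemble the kinetochore and were placed here midway between the flanking genes of the 2 arms. Within 5 kb of a centromere 13 of 32 windows were break-cold (40.6%), which is 4.33% of the break-cold windows against 1.41% of all windows, and 2.00% of the 150 lowest windows lay there. Break-cold windows made up 28.1% of windows at 5 to 10 kb, 21.9% at 10 to 25 kb and 11.9% at 25 to 50 kb. Of the 16 windows that hold a centromere, 7 were break-cold. The 13 pericentromeric windows had controls of 363 to 448 HpM, so their low level was not shared by the control. Over 200 kb from a centromere the share was 14.0%, close to the 13.2% that 300 of 2276 windows amount to. One of the 13, chosen after its values were seen, is IV:445001-450000 with *MCD1* (a cohesin subunit), *NHP10* and *RMD1*, at 93.3 HpM in the *sae2*Δ average and 428 HpM in the control.

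By chromosome, the share ran from 8.80% on XI (11 of 125 windows) to 21.7% on XII (44 of 203). Chromosome XII was also the chromosome with the lowest median *sae2*Δ level over all its windows (180.3 HpM). It carries the rDNA, the tandem array of ribosomal RNA genes. The share was 25.6% to the left of the rDNA and 18.8% to the right, and 6 of the 10 windows in the first 50 kb to the right were break-cold. Of these 6, the 4 in XII:470001-490000 (*ASP3* copies) were also low in the control, at 0 to 146 HpM. Only XII:495001-500000 and XII:505001-510000 were break-cold there with a normal control (391 and 450 HpM, against a median of 393 HpM over all windows). Within 50 kb of a chromosome end lay 36 break-cold windows, out of 185 windows there.

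Most break-cold windows were isolated. They formed 248 runs, 209 of them a single window, and the longest were 4 runs of 4 windows. The run at X:425001-445000 covers a centromere and the genes from *CYR1* (adenylate cyclase) through *OST1*, *PRE3* (a proteasome subunit) and *MPP10* to *SAG1* (the α-agglutinin). It had a mean control of 380.0 HpM and a mean of 92.4 ± 19.7 HpM in *sae2*Δ (SD, n = 5). The run at XII:425001-445000, just left of the rDNA, holds 12 ORF starts, from *PUT1* (proline oxidase) past *PEP3* and *STM1* to *PCD1*. It had a control of 396 HpM and 83.8 ± 22.1 HpM in *sae2*Δ (SD, n = 5). Its 12 starts lie in 4 windows, where the median number of starts per window was 3 over all windows and 1 in the break-cold set. Within this run XII:430001-435000, with 6 starts, is 1 of 9 break-cold windows with 4 or more. The runs at IV:515001-535000 (*ARO3*, *KRS1*, *ENA5*, *ENA2*) and XII:470001-490000 (*ASP3* copies) had mean controls of only 141 and 91.6 HpM.

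In contrast, 16 windows had no ORF start and were not break-cold. Their *sae2*Δ levels ran from 105.4 to 1049 HpM (median 161), and ORFs covered a median of 52.1% of them. The 6 lowest were among the next 200 windows in rank. The highest, V:375001-380000, holds part of *KAP123*, a nuclear import receptor gene, and was singled out after its value was seen.

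The windows were also cold in the other genotypes, which did not choose them. Of the 300, 271 were among the lowest 300 in the *ndt80*Δ average, 246 in *tel1*Δ and 244 in *ndt80*Δ *tel1*Δ, but 118 in the control. None rose above the median window of those 3 averages, whereas 62 lay above it in the control. Among single replicates the count ran from 204 (*ndt80*Δ *tel1*Δ replicate 4) to 271 (*ndt80*Δ replicate 2).

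How many reads they held, however, varied widely between replicates. The share of all window reads that fell in break-cold windows was 2.64 ± 0.607% in *sae2*Δ (SD, n = 5), 4.31 ± 3.10% in *ndt80*Δ (n = 4), 4.26 ± 0.809% in *tel1*Δ (n = 4) and 2.83 ± 2.45% in *ndt80*Δ *tel1*Δ (n = 5). In the control it was 11.6% (exact binomial 95% interval 11.5 to 11.6%), near the 13.2% of windows. The median level relative to the control was 0.246 ± 0.0585 in *sae2*Δ, 0.391 ± 0.288 in *ndt80*Δ, 0.399 ± 0.0773 in *tel1*Δ and 0.256 ± 0.233 in *ndt80*Δ *tel1*Δ (SD, same n).

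In *ndt80*Δ the 4 replicates had ratios of 0.671, 0.176, 0.606 and 0.111. In *ndt80*Δ *tel1*Δ the 5 had 0.118, 0.136, 0.357, 0.618 and 0.0491. In both genotypes the highest replicate was several times the lowest. In *tel1*Δ the ratios were 0.293, 0.392, 0.454 and 0.459, and in *sae2*Δ 0.290, 0.152, 0.301, 0.243 and 0.243. The ranges of *sae2*Δ and *tel1*Δ overlapped only between 0.293 and 0.301, and the range of each *ndt80*Δ genotype spanned both.

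**Figure D2:**
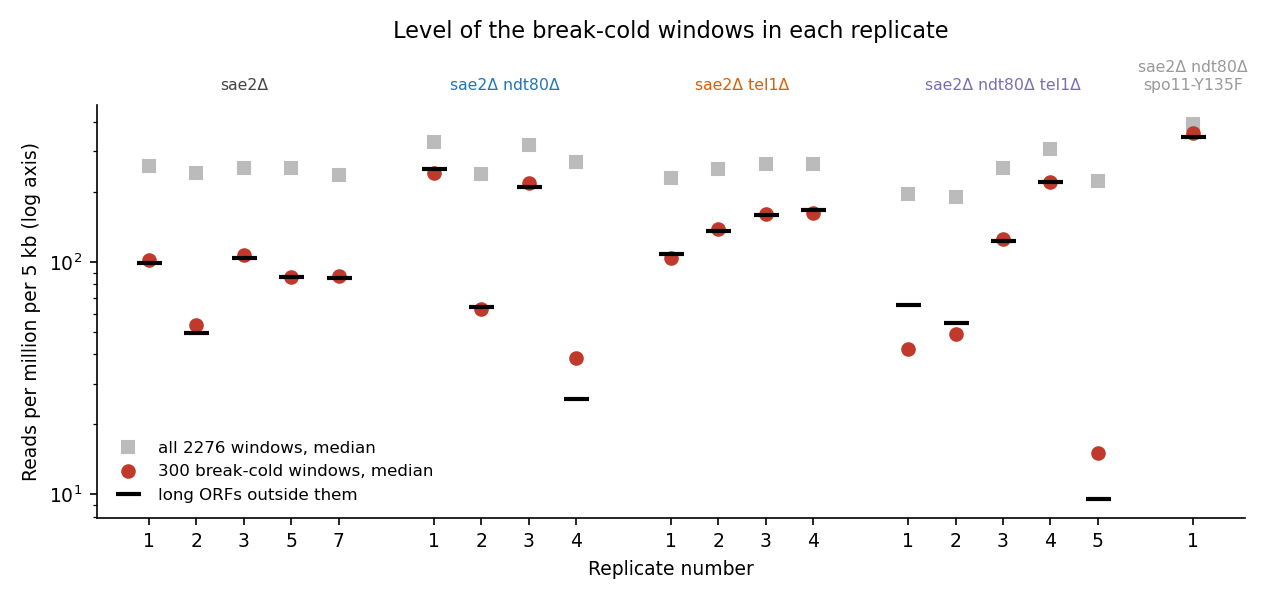
Median level in HpM per 5 kb (log axis) in each replicate for the 300 break-cold windows (circles) and for all 2276 windows (squares), with the level in 11 long ORFs that do not touch a break-cold window (bars). The break-cold median followed the long-ORF level, from 15.1 HpM in *ndt80*Δ *tel1*Δ replicate 5 to 240.5 HpM in *ndt80*Δ replicate 1, while the median of all windows stayed between 189.9 and 327 HpM.

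The level of the break-cold windows moved with the background of each library. For each window, the level relative to the control was divided by that of the 11 long ORFs, also relative to the control. The median break-cold window then stood at 1.00 ± 0.0338 in *sae2*Δ (SD, n = 5), 1.09 ± 0.272 in *ndt80*Δ (n = 4), 0.964 ± 0.0269 in *tel1*Δ (n = 4) and 1.04 ± 0.433 in *ndt80*Δ *tel1*Δ (n = 5). Before this division the 2 *ndt80*Δ genotypes stood at 0.391 and 0.256. These values also rest on the 1 control library. In *sae2*Δ the windows were chosen as low, so their 1.00 is no separate evidence. A level in HpM is a share of the library, and more breaks elsewhere cannot be told apart from fewer reads here.

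To compare single windows with the background of their own library, the control was scaled to each replicate by the level in 49 long ORFs, 38 of which overlap break-cold windows. Because the windows and these ORFs share reads, a median near 1 was partly fixed in advance and is no evidence on their level. Over the 277 windows of normal control, the medians of the 13 replicates that did not choose the windows lay between 0.736 and 1.39. Above 2 times the scaled control lay 69 windows in *ndt80*Δ replicate 4 (highest 7.06) and 115 in *ndt80*Δ *tel1*Δ replicate 5 (highest 15.5). In the other 11 replicates there were 0 to 8 such windows. Windows outside the set had medians from 1.21 to 23.3 in the same 13 replicates, and were farthest above the background in these same 2 libraries.

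**Figure D3:**
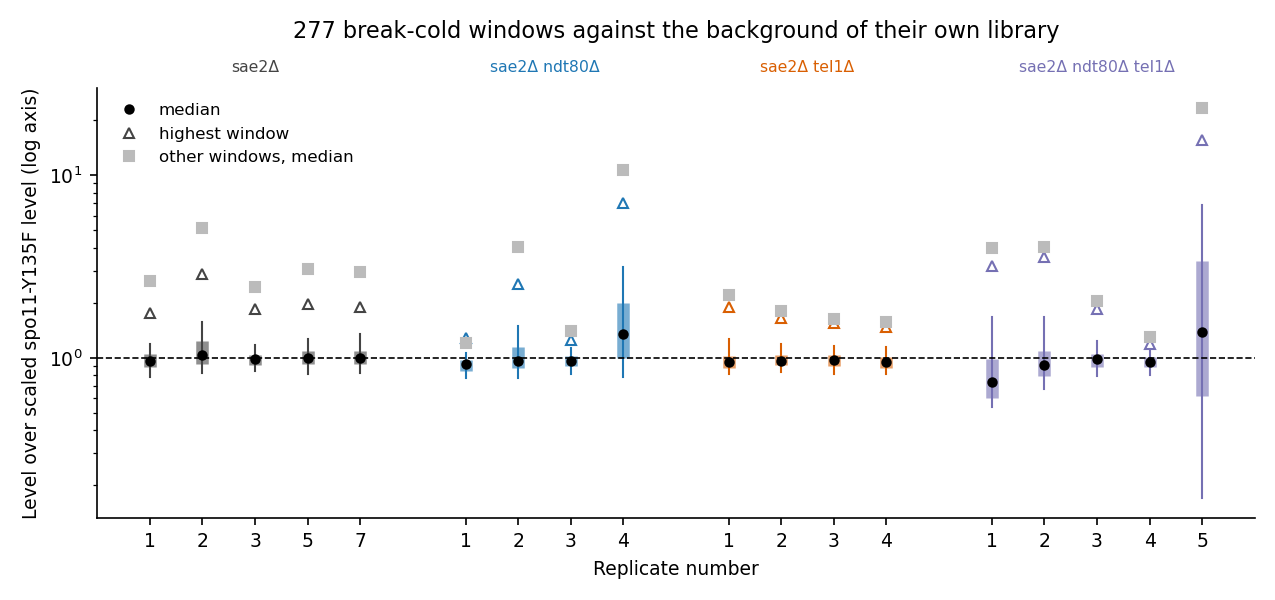
Level over the scaled *spo11-Y135F* level (log axis) in each replicate for the 277 break-cold windows with a normal control, where the point is the median, the thick bar the middle 50% and the thin bar the middle 90% of windows, the triangle the highest window and the square the median of all other windows. The medians lay near 1 (dashed line) except in *ndt80*Δ replicate 4 (1.35) and *ndt80*Δ *tel1*Δ replicates 1 (0.736) and 5 (1.39), where the spread was widest. Most of the long ORFs that set the scale overlap break-cold windows, so medians near 1 were partly fixed in advance.

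In these 2 libraries the windows differed by gene content. In *ndt80*Δ *tel1*Δ replicate 5 the 77 windows with no ORF start had a median of 0.524, the 99 with 1 start 2.29 and the 94 with more 1.91. In *ndt80*Δ replicate 4 the medians were 0.999, 1.60 and 1.69. In *tel1*Δ, whose replicates had higher backgrounds, the same medians were 0.980 ± 0.0251, 0.964 ± 0.0119 and 0.927 ± 0.00872 (SD, n = 4). Windows with an ORF start stood above those without one in both low-background libraries. By smaller gaps they also did in *ndt80*Δ *tel1*Δ replicates 1 and 2 (0.836, 0.977 and 0.905 in the latter) and in *ndt80*Δ replicate 2. They stood below in *ndt80*Δ replicates 1 (0.960, 0.906 and 0.882) and 3 (0.992, 0.964 and 0.938) and in *ndt80*Δ *tel1*Δ replicate 4 (1.01, 0.944 and 0.903). In *ndt80*Δ *tel1*Δ replicate 3 the order was mixed (0.982, 1.01 and 0.944).

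The windows most often among the 10 highest over the scaled control in the 13 replicates are named after their values were seen. II:220001-225000, with *PDR3* (a regulator of drug resistance genes) and a recurrent ORF, and XIII:370001-375000, with *ERB1* (a ribosome assembly factor) and the recurrent ORF YMR050C, were there in all 13. IV:520001-525000, with *ARO3* (an enzyme of aromatic amino acid synthesis), was there in 11, and XIV:565001-570000 in 10. Their controls were 0.512, 0.614, 0.534 and 0.594 times the median, all near the limit of 0.5, so a low control entered each ratio. At XIII:370001-375000 the *ndt80*Δ *tel1*Δ replicates stood at 2.86, 2.90, 1.85, 1.13 and 15.5 times the scaled control, and the *tel1*Δ replicates at 1.61, 1.44, 1.34 and 1.29 times.

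Reads within break-cold windows were compared between ORFs and the gaps of 3 kinds between neighbouring genes. Divergent gaps hold 2 promoters, tandem gaps 1, and convergent gaps only gene ends. Reads per base in gaps were divided by reads per base in ORFs of the same windows. In the control, break-cold windows gave 1.04 in divergent, 1.13 in tandem and 1.06 in convergent gaps, so no gap type stood out. In *sae2*Δ the ratios were 2.01 ± 0.539, 1.78 ± 0.404 and 1.05 ± 0.0901 (SD, n = 5). In *tel1*Δ they were 1.40 ± 0.108, 1.38 ± 0.126 and 1.05 ± 0.0572 (n = 4).

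The 2 *ndt80*Δ genotypes varied far more. Divergent gaps stood at 2.73 ± 2.46 in *ndt80*Δ (n = 4) and 3.75 ± 4.14 in *ndt80*Δ *tel1*Δ (n = 5), tandem gaps at 2.48 ± 2.15 and 4.07 ± 5.02, and convergent gaps at 1.21 ± 0.408 and 1.62 ± 0.986. The libraries of time course 17 gave the highest values, with 6.32, 5.65 and 1.80 in *ndt80*Δ replicate 4 and 11.1, 13.0 and 3.37 in *ndt80*Δ *tel1*Δ replicate 5. Outside the set, the divergent ratio was 13.0 ± 2.24 in *sae2*Δ (n = 5) and 1.07 in the control. Promoter gaps of break-cold windows held more reads per base than their ORFs in the mean of each of the 4 genotypes, by smaller ratios than in the other windows. Because *sae2*Δ chose windows with few reads, its smaller ratio was partly fixed in advance and is no separate evidence. Not every replicate stood clear of the control (1.04 divergent, 1.13 tandem). The values were 1.07 and 1.02 in *ndt80*Δ replicate 1, and 1.14 and 1.18 in *ndt80*Δ *tel1*Δ replicate 4. No test was run on these ratios.

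**Figure D4:**
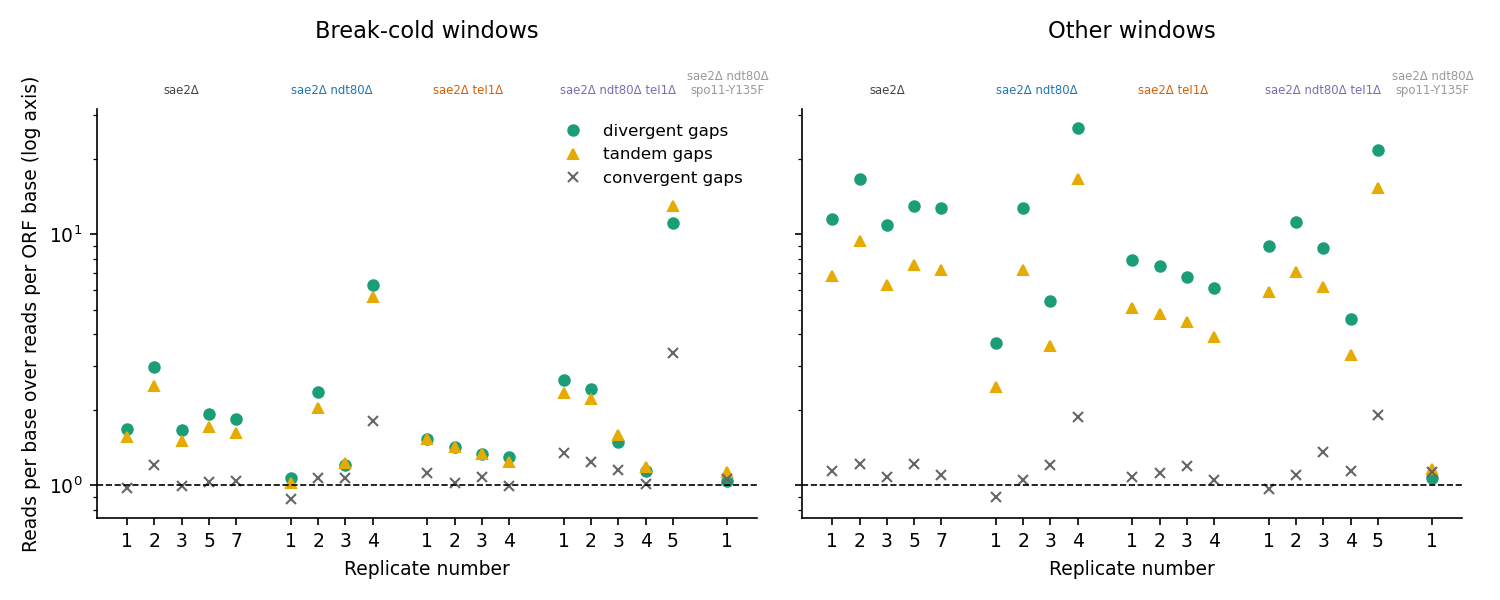
Reads per base in divergent, tandem and convergent gaps over reads per base in ORFs (log axis) for each replicate, in break-cold windows (left) and in all other windows (right), with the dashed line at 1. In break-cold windows the control lay at 1.04 to 1.13 and *ndt80*Δ *tel1*Δ replicate 5 at 3.37 to 13.0.

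Spo11 leaves short 5′ overhangs, so ends of the same break on the Watson and Crick strands lie at a fixed offset, here 1 base. The number of positions with ends on both strands at that offset, over the mean at offsets of more than 5 bases, was 0.994 in break-cold windows of the control and 1.01 in its other windows. In break-cold windows it was 1.02 to 1.97 in all libraries with active Spo11 other than *ndt80*Δ replicate 4 (3.16) and *ndt80*Δ *tel1*Δ replicate 5 (3.90). The lowest value was that of *ndt80*Δ *tel1*Δ replicate 4, a library of high background.

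Within the windows the reads were not flat. The 200 bp bin with the most reads in the *sae2*Δ average held 1.85 times an even share of its window (4% for each of 25 bins) in *ndt80*Δ. It held 1.72 times in *tel1*Δ and 2.19 times in *ndt80*Δ *tel1*Δ, against 1.19 in the control (medians over windows). Over all windows the same medians were 6.13, 5.18, 6.26 and 1.13. Of these bins, 58.7% lay mostly outside ORFs in break-cold windows, where 18.2% of all bins did. Over all windows the shares were 88.3% and 25.5%.

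The genotypes were then compared window by window with edgeR, in which each library was scaled by its reads in all windows, p was adjusted over 2275 windows and 299 of the 300 break-cold windows were tested. XII:470001-475000 held too few reads. The first comparison asks what Tel1 loss does in arrested cells. In *ndt80*Δ *tel1*Δ against *ndt80*Δ, 0 break-cold windows were called higher, where 8.18% of all windows were, and 2 were called lower, where 15.0% were. At an unadjusted p under 0.05 the counts were 0 and 2, and DESeq2 called 0 of the 48 windows to which it gave an adjusted p. The median log2 ratio of the break-cold windows was -0.64, against -0.33 over all windows, and the median SE of a log2 ratio was 0.61 against 0.22.

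Both windows called lower hold *TEL1* itself, which is deleted in 1 of the 2 genotypes. II:55001-60000 holds *TEL1* and *RPL23A*, a ribosomal protein gene. It held 242, 68.1, 238 and 56.9 HpM in *ndt80*Δ, and 3.79, 7.47, 17.3, 30.0 and 1.10 HpM in *ndt80*Δ *tel1*Δ, so the groups did not overlap. Its log2 ratio was -3.68 (SE 0.73, adjusted p = 0.000758, edgeR). II:50001-55000 holds the other end of *TEL1* and part of *AVT5*, a vacuolar transporter gene, with a log2 ratio of -2.78 (SE 0.75, adjusted p = 0.00865, edgeR), and its groups did overlap (27.0 to 238 against 1.65 to 45.9 HpM). Without these windows no break-cold window was called in this comparison.

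**Figure D5:**
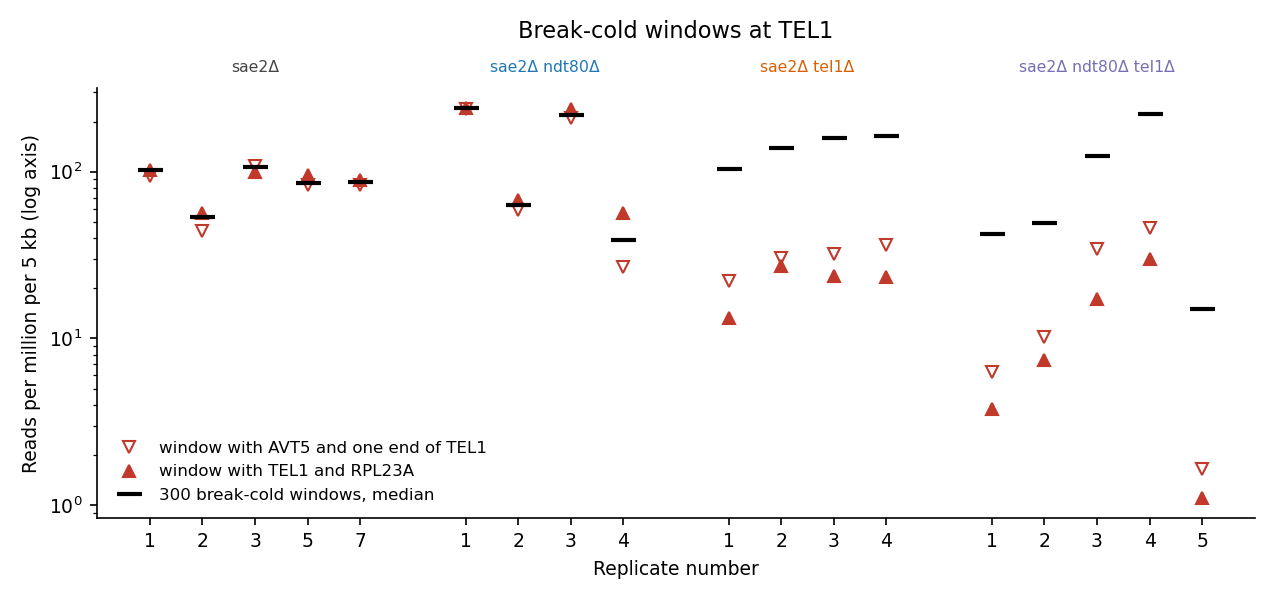
Level in HpM per 5 kb (log axis) of the windows that hold *TEL1* (triangles) in each replicate, with the median of the 300 break-cold windows (bars). In the genotypes with *TEL1* intact the *TEL1* windows lay near the bar, and in each *tel1*Δ replicate both lay below it, at 13.3 to 36.2 HpM in *tel1*Δ and 1.10 to 45.9 HpM in *ndt80*Δ *tel1*Δ.

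The second comparison asks what Ndt80 loss does without Tel1. In *ndt80*Δ *tel1*Δ against *tel1*Δ, 0 break-cold windows were called higher, where 8.18% of all windows were, and 0 lower, where 4.35% were. At an unadjusted p under 0.05 edgeR also gave 0 in both directions, and DESeq2 gave an adjusted p to 1 window and did not call it. The median log2 ratio was -0.62, against -0.23 over all windows. In the third comparison, of *tel1*Δ against *ndt80*Δ, 0 were called higher, where 6.46% of all windows were, and 1 lower, where 12.9% were. This was again II:55001-60000 (log2 ratio -2.82, SE 0.77, adjusted p = 0.00947, edgeR), at 13.3 to 27.0 HpM in *tel1*Δ. The median was -0.01 (all windows -0.07). A ratio that misses the threshold does not show that levels were equal, since replicate spread was wide. The median SD of log2(HpM + 1) was 1.25 in break-cold and 0.386 in other windows of *ndt80*Δ, 1.40 and 0.400 in *ndt80*Δ *tel1*Δ, 0.377 and 0.138 in *sae2*Δ, and 0.292 and 0.122 in *tel1*Δ.

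These counts depended on the libraries used. Without the libraries whose file names carry a time-course number, 262 of 299 break-cold windows were called lower in *ndt80*Δ *tel1*Δ than in *ndt80*Δ (56.0% of all windows) and 269 lower than in *tel1*Δ (55.8% of all windows), with 2 replicates of each *ndt80*Δ genotype left. Without *ndt80*Δ *tel1*Δ replicate 4 alone, 37 were called lower in the first (35.7% of all windows) and 8 in the second (22.4%). With time course as a block, 211 were called lower in the first (46.5% of all windows) and 223 in the second (44.4%). All replicates with no time-course number counted there as 1 block, although no label groups them, and no *tel1*Δ replicate has such a number. Within time course 10 the median log2 ratio of *ndt80*Δ *tel1*Δ to *ndt80*Δ was 0.02 over the break-cold windows, and within time course 17 it was -1.26, with 283 of 299 windows lower, each from 1 library per genotype and so with no test. Libraries were also scaled to the 11 long ORFs instead of to all windows. Then 10 break-cold windows were called higher in *ndt80*Δ *tel1*Δ than in *tel1*Δ, against 0.44% of all windows, so that all 10 called were break-cold. The break-cold median turned to 0.13, but the median over all windows was 1.77. The median SE was 0.31 in break-cold windows and 0.85 over all windows, so these calls do not show a rise particular to break-cold windows.

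For *sae2*Δ the test had to use replicates that did not choose the windows. When 300 windows were chosen on replicates 1, 2 and 3 (292 of them shared with the set above) and compared using replicates 5 and 7, *ndt80*Δ gave 0 higher and 0 lower, where 0.0% and 0.0% of all windows were called. *tel1*Δ gave 0 higher and 0 lower, where 1.76% and 5.36% were. *ndt80*Δ *tel1*Δ gave 0 higher and 1 lower, a *TEL1* window, where 4.22% and 6.15% were. At an unadjusted p under 0.05 the counts over both directions were 0, 1 and 2 (edgeR). The median log2 ratios to *sae2*Δ were 0.72, 0.72 and 0.11, and over all windows 0.29, 0.22 and 0.02, and the 3 comparisons share the *sae2*Δ replicates. The interaction of the 2 deletions called 0 break-cold windows and 0.0% of all windows (edgeR, 0 break-cold windows at an unadjusted p under 0.05). In all replicates together, as a description, the medians were 0.71, 0.70 and 0.09.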

How the data were processed

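CC-seq maps the ends of Spo11-linked DNA. The deposited files hold raw counts, on each strand, of the reads that end at a base. The authors placed the reads with Bowtie2 on the R64 genome with the *HIS4*::*LEU2* and *leu2*::*hisG* inserts on chromosome III, per the labels and the study's methods. The Bowtie2 version, filters on mapping quality and removal of duplicates are not given in the sources used here. The control file held 2 tables one after the other, of which the first was used (3622725 of 10868175 reads).

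Counts were summed in 5 kb windows and scaled to 1000000 reads on the nuclear chromosomes (HpM). Libraries 7B and 7C of *sae2*Δ, and 1A and 1B of *sae2*Δ *tel1*Δ, were each summed as 1 replicate. Genotypes were compared by the quasi-likelihood test of edgeR 4.0.16 (R 4.3.3) on the counts over all windows that passed filterByExpr, with the library's total over windows as its size, Benjamini-Hochberg adjustment over all of these and a threshold of 0.05. DESeq2 1.42.0 was an alternative, and other alternatives changed the scaling, the libraries, the number of windows and a block on replicate or time course. The fits were tested on simulated data. Library depth was 1562673 to 8705712 reads, and intervals cover counting error only, since reads are not independent molecules. Gene positions came from the RefSeq R64 table, with the strand from the locus name, and chromosome III to the right of *HIS4* was not annotated because of the inserts. Time-course numbers came from file names.

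The windows and gene lists were chosen with earlier results of these data known. Windows were named if they had the lowest *sae2*Δ level with a control of at least 0.5 times the median (5), the lowest or highest control (3 each), the largest called changes without overlap of replicates (up to 3 in each direction), lay in the longest runs, held a gene altered in the strains or lay in the 5 longest ORFs at least 50% inside the set.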

Additional observations from a re-analysis of the deposited data

Results flagged for a closer look

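Of 90 groups of 4 or 5 replicates examined, 12 held a replicate that stood apart from the others beyond Dixon's 95% limit. Chance gives about 1 in 20 for separate groups. These groups score the same libraries on overlapping quantities, so the 2 rates cannot be set against each other. Most of the 12 concern the low-background libraries. In *sae2*Δ *ndt80*Δ *tel1*Δ replicate 5 the mean break-cold level over the background of 49 long ORFs was 2.28 (next replicate 1.00), and 115 windows lay above 2 times the scaled control (next 8). Its gaps between genes held 11.1 (divergent, next 2.63), 13.0 (tandem, next 2.34) and 3.37 (convergent, next 1.35) times the read density of ORFs. In *sae2*Δ *ndt80*Δ replicate 4, 69 windows lay above 2 times the scaled control (next 3), and the median over the scaled control was 1.35 (next 0.965). In *sae2*Δ replicate 2, 5 windows lay above 2 times the scaled control (others 0), and the gap densities over ORFs were 2.95 (divergent, next 1.92), 2.49 (tandem, next 1.71) and 1.20 (convergent, next 1.04). At VIII:80001-85000 (*PRS3*, *ETP1*, *YAP3*), *sae2*Δ *tel1*Δ replicate 1 was the low one, with 120.8 HpM against 164.8 HpM in the next.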

How the results depend on the processing

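Of the 473 combinations of result and alternative, 408 were labelled the same. For shares called and medians, the same meant within a set limit of the main value. For a median log2 ratio the limit was the replicate SD of the log2 share of reads in break-cold windows. This SD was wide in the 2 *ndt80*Δ genotypes. For *ndt80*Δ *tel1*Δ against *ndt80*Δ, -1.78 without the time-course libraries thus counted as the same as -0.64. Counts of 0 in both settings also counted as the same, so the 408 do not measure stability. Of the rest, 12 reversed in direction, 51 moved beyond the limit and 2 grew stronger. The triple mutant is *sae2*Δ *ndt80*Δ *tel1*Δ, the others are named without *sae2*Δ, and shares are of break-cold windows called. Triple against *ndt80*Δ gave 0.334% with these 2 genotypes alone, 87.6% without the time-course libraries and 0.0% without the *TEL1* windows. Triple against *tel1*Δ gave 90.0% and a median log2 ratio of -1.66 without the time-course libraries, and scaling to 11 long ORFs gave 3.34% and a median of 0.13, with 0.13 also for 49 long ORFs. With 11 long ORFs the median over all windows was 1.77. Without the time-course libraries or with time course as a block II:55001-60000 passed the threshold here (log2 ratio -1.99 and -1.78). *tel1*Δ against *ndt80*Δ gave 0.669% with TMM factors, either ORF scaling, 2 genotypes alone, every library as a replicate, without the time-course libraries or without time course 17, 0.0% with 150 windows or without the *TEL1* windows, and 0.167% with 600 windows. Its median was 0.13 with TMM factors. With time course as a block 70.6%, 74.6% and 0.669% were called in these 3 comparisons, and the median of the last turned to 0.10. With windows chosen on part of the *sae2*Δ replicates, ORF scaling gave 0.669% and a median of -0.035 for *tel1*Δ and 1.00% for the triple, and leaving out the time-course libraries gave 0.669% for *tel1*Δ and 1.67% with a median of -0.93 for the triple. The level relative to the control, divided by that of the 11 long ORFs, also relative to the control, was 1.00 (*sae2*Δ), 1.09 (*ndt80*Δ), 0.964 (*tel1*Δ) and 1.04 (triple). With 150 and 600 windows, 49.3% and 15.3% had no ORF start, 16.4% and 7.06% a recurrent ORF (4.10% when chosen by the ratio to the control), and ORFs covered 91.9% and 83.9%. Within 5 kb of a centromere lay 4.33%, and 2.00% with 150. Scaling to 49 ORFs, leaving out time course 17 or the *TEL1* windows, the time-course block and the settings for windows chosen on part of *sae2*Δ were chosen after seeing the data. The cause of each change was not tested.

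Leaving out 1 replicate at a time gave 0.669 to 12.4% called and medians of -1.30 to -0.23 (triple against *ndt80*Δ), 0.0 to 2.68% and -1.29 to -0.35 (triple against *tel1*Δ), and 0.334 to 0.669% and -0.32 to 0.39 (*tel1*Δ against *ndt80*Δ, where the median turned positive without *ndt80*Δ replicate 1, 0.39, or 3, 0.28, or *tel1*Δ replicate 1, 0.11). The high ends of the first and second came without triple replicate 4. Against the *sae2*Δ replicates that did not choose the windows, the triple gave 0.0 to 0.669% and -0.54 to 0.37, negative without its replicate 3 (-0.02) or 4 (-0.54). With the replicate block, medians were -0.75, -0.79 and 0.055 in the order above, and 0.669%, 0.0% and 0.334% were called. Same-numbered replicates did not all deviate together (r from -0.81 to 0.80), and libraries of 1 time course did (r of 0.90 and 0.89). Pairs that share no time course ran from -0.92 to 0.87, so a high r was not particular to a shared time course. No paired analysis was possible because the held-out *sae2*Δ replicates share fewer than 2 numbers with the other groups, where *sae2*Δ is compared. DESeq2 gave no adjusted p to 252, 299 and 300 of 300 break-cold windows, so it has no value here. The fewest reads per break-cold window, a median of 55, were in triple replicate 5.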
